A study of Mus musculus with 16 samples.

Results

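The control livers of 2 mouse lines were compared with each other. RPN11 flox/flox mice carry the gene Psmd14 flanked by target sites for Cre recombinase, and METTL3 flox/flox mice carry Mettl3 flanked in the same way. All 4 RPN11 flox/flox and all 4 METTL3 flox/flox livers were taken by their genotype label, which gave 8 of the 16 livers in the series. The other 8 livers, 4 labelled as hepatocyte-specific knockouts of each gene, were used for 1 comparison at the end. All mice were male, of strain C57BL/6, and had food at all times. The labels give no Cre driver, age, diet, hour of collection or batch, and each line forms 1 cohort, so line and cohort cannot be told apart. Livers were taken as separate mice from their replicate numbers. If they were not, the p-values measure technical spread only.

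RPN11 is the deubiquitylating subunit of the proteasome, the complex that degrades ubiquitin-tagged proteins. METTL3 is the catalytic subunit of the enzyme that writes N6-methyladenosine on mRNA. Control groups of different floxed lines share a nominal strain, yet may differ in neighbouring DNA, breeding history, litter and sampling. Hepatocyte transcripts are also known to vary with feeding and with the hour, since lipid synthesis and fasting genes follow insulin and nutrients and the liver clock drives daily rhythms. In the liver clock, ARNTL and CLOCK activate genes through E-boxes, PER and CRY proteins repress them, and REV-ERB proteins (Nr1d1, Nr1d2) repress Arntl while ROR proteins activate it.

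Ribosomal-RNA-depleted libraries were counted per gene. The RPN11 libraries held 24516234 to 28212133 counts each, and the METTL3 libraries held 25062848 to 29029592. Levels are CPM, counts scaled to a common library size by TMM, and values per liver are given in the order of replicates 1 to 4. Of 16 hepatocyte markers all were in the table, and Alb, the plasma albumin gene, held 96644 to 122446 CPM in RPN11 and 91709.7 to 112609 CPM in METTL3 livers. The common biological coefficient of variation was 0.193 among RPN11 and 0.269 among METTL3 livers. Component 1 of a principal component analysis held 23.2% of the variance and did not separate the lines. Component 2 held 20.6% and placed RPN11 livers at -23.8 to -10.8 and METTL3 livers at -5.76 to 58.3, with METTL3 replicate 4 at the far end. METTL3 replicates 2 and 4 were the extreme liver of the 8 most often, at 4794 and 3714 highest or lowest gene values.

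**Figure D1:**
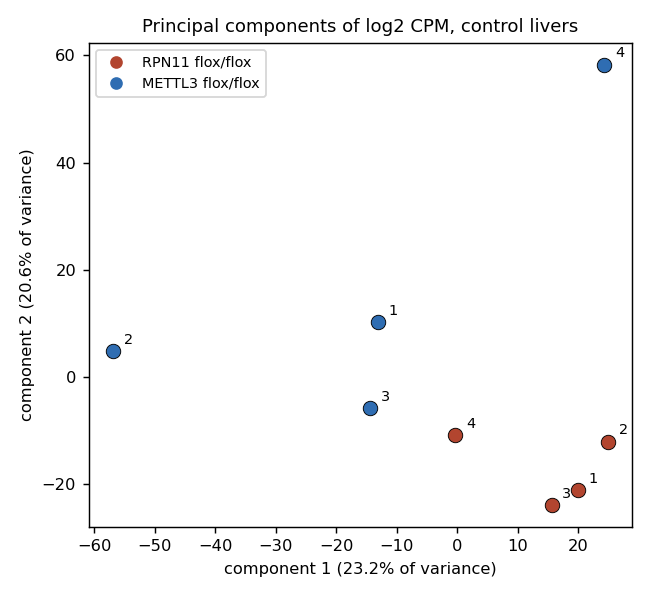
Each point is 1 control liver, numbered by replicate, placed by its scores on the first (horizontal) and second (vertical) principal components of log2 CPM, in score units. The 4 RPN11 flox/flox livers lie between -23.8 and -10.8 on component 2, below the 4 METTL3 flox/flox livers, and METTL3 replicates 2 and 4 lie apart from the others.

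Psmd14 was at 67.0, 73.2, 69.1 and 73.4 CPM in RPN11 flox/flox livers and at 80.6, 58.7, 72.9 and 75.1 CPM in METTL3 flox/flox livers. The groups overlapped (exact permutation test, two-sided, p = 0.914). Mettl3 was at 9.54, 7.81, 7.18 and 10.7 CPM in RPN11 flox/flox livers and at 12.4, 15.7, 16.01 and 13.1 CPM in METTL3 flox/flox livers. All METTL3 flox/flox livers, which carry the floxed Mettl3 allele, lay above all RPN11 flox/flox livers. The group means were 14.3 ± 1.82 and 8.80 ± 1.597 CPM (SD, n = 4), and the exact two-sided permutation p of 0.0286 is the smallest that 4 against 4 can give. In the edgeR quasi-likelihood test over all genes Mettl3 did not pass (log2 difference -0.70, SE 0.17, adjusted p = 0.0784). Log2 differences here and below are RPN11 minus METTL3.

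Of 11905 genes tested, 38 (0.319%) passed an adjusted p of 0.05 in edgeR's test, 29 (0.244%) higher and 9 (0.0756%) lower in RPN11 flox/flox livers. The higher genes included Scd3, Fads2, Acaca, Acsl5, Lipa, Abhd2 and Mgll, which encode enzymes of lipid metabolism, and the largest falls were in the transcriptional repressors Bcl6 and Nr0b2. In bulk liver, fewer cells of a type and less RNA per cell cannot be told apart. Absolute log2 differences of the called genes ran from 0.46 to 4.34, 12 of them at 2-fold or more, and in each the groups did not overlap. Of all tested genes 5651 (47.5%) had log2 differences above 0 and 6254 below. Over all tested genes the groups failed to overlap in 1086 (9.12%), 567 (4.76%) in the higher and 519 (4.36%) in the lower direction, and 1962 had an unadjusted p under 0.05. The list ends in a crowd, since the last called gene had an adjusted p of 0.0476 and 37 more genes lay between 0.05 and 0.051. The count rested on single livers: 1 gene, Fads2, was called without RPN11 replicate 1 or without RPN11 replicate 3. Without METTL3 replicates 1, 2, 3 and 4 the counts were 21, 17, 5 and 282, and without RPN11 replicates 2 and 4 they were 13 and 88. DESeq2 called 267 higher and 156 lower genes, and a fit of all 16 livers called 1, Dhrs9. All 38 kept their sign in every alternative in which they were tested. Since the groups of each did not overlap, a change of sign was hardly possible, so this adds no support.

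Fatty acid synthesis and desaturation formed the list with the most called members, 2 genes, Fads2 and Acaca. Fads2 (ENSMUSG00000024665, chr19:10062765-10101746, minus strand, GRCm38), the delta-6 desaturase of polyunsaturated fatty acid synthesis, was at 652, 582, 674 and 729 CPM in RPN11 and at 279, 294, 397 and 286 CPM in METTL3 flox/flox livers. Every RPN11 liver was above every METTL3 liver, and the difference was 2.10-fold (659 ± 61.0 against 314 ± 55.4 CPM, SD, n = 4, log2 difference 1.07, SE 0.12, adjusted p = 0.00176). Fads2 had the lowest p of all genes and passed in 14 of 15 alternative analyses. Acaca (ENSMUSG00000020532), the acetyl-CoA carboxylase that commits carbon to fatty acid synthesis, was at 107, 126, 119.7 and 110.2 CPM in RPN11 livers. In METTL3 livers it was at 91.3, 78.3, 63.1 and 57.5 CPM, a level 1.59-fold lower (log2 difference 0.67, SE 0.13, adjusted p = 0.0435).

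Scd3 (ENSMUSG00000025202, chr19:44203269-44244016, plus strand), a stearoyl-CoA desaturase that puts the first double bond into saturated fatty acids, showed the largest log2 difference of the called genes. It was at 4.25, 3.20, 3.02 and 1.08 CPM in RPN11 and at 0.142, 0.213, 0.120 and 0.0742 CPM in METTL3 flox/flox livers (305 against 15 counts in all, log2 difference 4.34, SE 0.59, adjusted p = 0.00995). Its neighbours Scd2 (chr19:44293674-44306864) and Scd1 (chr19:44394455-44407879) are close copies, so counts may be shared among them. Scd1, the main hepatic desaturase, was at 22078, 15664, 19412 and 17340.4 CPM in RPN11 and at 5574, 10483, 6447 and 2657 CPM in METTL3 livers. The Scd1 groups did not overlap, yet its spread was wide and it did not pass (log2 difference 1.57, SE 0.40, adjusted p = 0.138). Scd2 was at 10.1 to 14.2 CPM in RPN11 and 3.39 to 7.89 CPM in METTL3 livers (adjusted p = 0.0507).

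Of the 23 tested lipogenesis genes, which do not include Scd3, 2 were called higher, 0 lower and 21 did not pass. In 10 of them (43.5%) all RPN11 livers lay above all METTL3 livers, against 4.76% of all tested genes, and the list median was a log2 difference of 0.63, against -0.02 over all genes. Besides Fads2, Acaca, Scd1 and Scd2 these were Fads1, Elovl5, Acly, Me1, Fasn and Acacb. Fads1, the delta-5 desaturase beside Fads2, was at 899 to 1195 CPM in RPN11 and 508 to 816 CPM in METTL3 livers (adjusted p = 0.0507). Elovl5, the elongase of polyunsaturated fatty acids, was at 1245 to 1798 and 499 to 1076 CPM (adjusted p = 0.0979). Me1, the malic enzyme that supplies NADPH, was at 316 to 639 and 122 to 256 CPM (adjusted p = 0.0936). Acly, which makes cytosolic acetyl-CoA from citrate, was at 273 to 411 and 163 to 267 CPM (adjusted p = 0.0507). Acacb, the mitochondrial acetyl-CoA carboxylase, was at 134 to 154 CPM in RPN11 livers and spread from 26.7 to 93.6 CPM in METTL3 livers (adjusted p = 0.145). Fasn, fatty acid synthase, was at 167 to 301 and 113 to 166 CPM (adjusted p = 0.123). Transcripts of the transcription factors known to drive this set did not separate the groups. Srebf1, encoding SREBP1, was at 73.6 to 103 and 71.1 to 95.5 CPM, and Mlxipl, encoding ChREBP, at 352 to 509 and 366 to 687 CPM. The activity of these proteins was not measured. Summed over the 24 members in the table, lipogenesis transcripts were 21320.9 to 28367.6 CPM in RPN11 and 6295.5 to 15461 CPM in METTL3 livers. Scd1, the largest of the members named here in every liver, alone held most of the sums. Its mean was 18624 of 25261 CPM in RPN11 and 6290 of 10728 CPM in METTL3 livers. The sums thus say little about the other members.

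**Figure D2:**
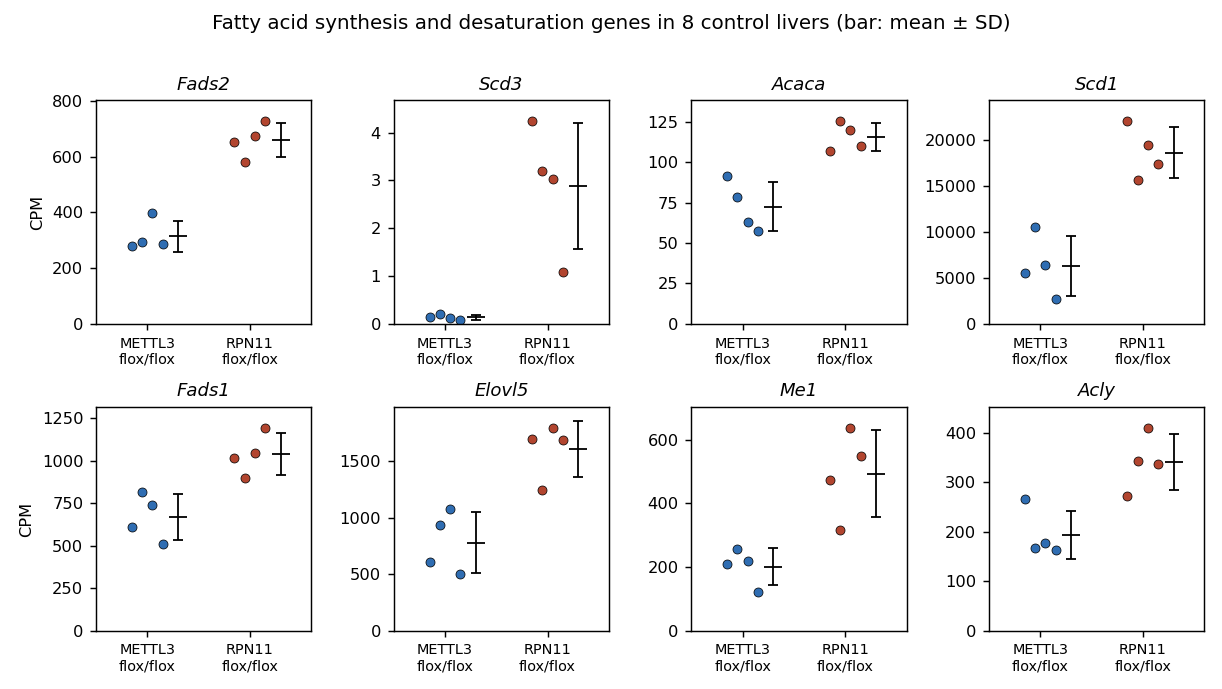
CPM (vertical axis, from 0) of 8 genes of fatty acid synthesis and desaturation in each METTL3 (blue) and RPN11 (red) flox/flox liver, with mean ± SD (n = 4) beside the points. In all 8 genes the groups do not overlap, while only Fads2, Scd3 and Acaca passed the threshold over all genes; Scd1 shows the wide METTL3 spread of 2657 to 10483 CPM.

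Promoter sequence was looked up for the lipogenesis set because so many of its members lay apart. Of its 24 genes, 19 matched an entry in RefSeq's promoters (250 bases before to 50 after the start, GRCm38.p6). The E-box CACGTG, read on both strands, was in 3 of the 19, Elovl5, Mlxipl and Slc25a1, and in 7.15% of all 32851 promoters. A sterol response element spelled TCACNCCAC, also on both strands, was in 1, Mlxipl, and in 1.24% of all promoters. The Elovl5 promoter is at chr9:77917115-77917414, plus strand, with its E-box in capitals, starting at base 90 of the window.
Elovl5: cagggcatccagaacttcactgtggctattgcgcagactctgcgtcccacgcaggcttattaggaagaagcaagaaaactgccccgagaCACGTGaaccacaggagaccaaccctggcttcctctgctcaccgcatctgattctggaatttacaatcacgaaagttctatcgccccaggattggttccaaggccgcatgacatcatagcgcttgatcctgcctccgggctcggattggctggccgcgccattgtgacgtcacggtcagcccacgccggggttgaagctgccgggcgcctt
The match is a description of these letters and not a binding site.

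Of the other called genes, 7 that encode proteins of lipid or peroxisome metabolism are described together. They were grouped after their values were seen, so their shared direction is no result about a group. Lipa, the lysosomal acid lipase that frees fatty acids and cholesterol from their esters, was at 337, 285, 334 and 305 CPM in RPN11 and at 186, 179, 224 and 195 CPM in METTL3 livers (log2 difference 0.69, SE 0.10, adjusted p = 0.0150). Abhd2, a serine hydrolase of monoacylglycerols, was at 66.2 to 92.1 and 24.2 to 47.0 CPM (log2 difference 1.11, adjusted p = 0.0476). Mgll, monoacylglycerol lipase, was at 272 to 301 and 182 to 224 CPM (log2 difference 0.46, adjusted p = 0.0476). Acsl5, which activates long-chain fatty acids to acyl-CoA, was at 476 to 561 and 319 to 405 CPM (adjusted p = 0.0428). Abcd3, a transporter of the peroxisome membrane, was at 969.8 to 1117 and 630.2 to 742 CPM (adjusted p = 0.0358). Etnk1, ethanolamine kinase of phosphatidylethanolamine synthesis, was at 86.5 to 133 and 60.1 to 70.3 CPM (adjusted p = 0.0389), and Tmem135, a membrane protein linked to peroxisomes and mitochondria, at 139 to 161 and 98.7 to 117 CPM (adjusted p = 0.0448). In each of these 7 genes the lowest RPN11 liver lay above the highest METTL3 liver.

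The wider lipid lists held few calls. Over all tested genes 47.5% had log2 differences above 0, and the groups did not overlap in 9.12%. Of 27 tested genes that oxidise fatty acids or respond to PPAR alpha none was called, 23 had log2 differences above 0, and the median was 0.18. In 3 of them all RPN11 livers lay above all METTL3 livers and in 1 below, 14.8% of that list in all. Ppara, the receptor itself, was at 109 to 152 CPM in RPN11 and 70.7 to 110.0 CPM in METTL3 livers (adjusted p = 0.0743). Of 24 lipid droplet and uptake genes 1 was called higher, Mgll, 21 were above 0 (median 0.25) and 12.5% did not overlap. Of 23 cholesterol synthesis genes none was called, 17 were above 0 (median 0.12) and 13.0% did not overlap. Sc5d, a late enzyme of that pathway, did not overlap between groups, at 528 to 576 against 378 to 437 CPM (adjusted p = 0.0507). Of 19 genes of the fasting response and gluconeogenesis none was called, 14 were above 0 and 5 below (median 0.18), and 21.1% did not overlap. Pdk4 and Irs2, given next, had the lowest adjusted p of that list. Pdk4, the kinase that shuts pyruvate dehydrogenase in fasting, was at 18.6, 14.4, 22.8 and 15.5 CPM in RPN11 and at 5.17, 9.42, 7.53 and 2.67 CPM in METTL3 livers (log2 difference 1.52, SE 0.32, adjusted p = 0.0605). Irs2, an insulin receptor substrate induced in fasting, was at 4.39 to 7.34 and 1.95 to 4.12 CPM (adjusted p = 0.0978).

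A further 4 called genes for enzymes and regulators of sugar or sulfate metabolism were likewise grouped with their values in view. Pgd, the NADPH-producing 6-phosphogluconate dehydrogenase of the pentose phosphate pathway, was at 31.6, 32.7, 44.0 and 30.7 CPM against 21.7, 17.1, 24.4 and 21.1 CPM (log2 difference 0.72, SE 0.14, adjusted p = 0.0448). Pdpr, a regulatory subunit of pyruvate dehydrogenase phosphatase, was at 16.1, 18.4, 12.7 and 14.97 CPM against 8.42, 5.22, 5.90 and 8.53 CPM (log2 difference 1.15, SE 0.19, adjusted p = 0.0389). Gbe1, the glycogen branching enzyme, was at 244 to 294 against 159 to 195 CPM, and Papss2, which makes the sulfate donor of conjugation, at 420.3 to 512 against 273 to 351 CPM. In each of these 4 genes the lowest RPN11 liver was above the highest METTL3 liver.

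Bcl6 (ENSMUSG00000022508, chr16:23965052-23988852, minus strand), a transcriptional repressor that is more abundant in male than in female mouse liver, had the largest difference of the lower genes. It was at 15.1, 14.5, 11.02 and 10.9 CPM in RPN11 flox/flox livers and at 27.8, 76.1, 64.6 and 71.0 CPM in METTL3 flox/flox livers. METTL3 replicate 1 lay well below the others of its group and still above every RPN11 liver. The difference was 4.65-fold (12.9 ± 2.21 against 59.9 ± 21.9 CPM, SD, n = 4, log2 difference -2.22, SE 0.31, adjusted p = 0.0389). Nr0b2, encoding the small heterodimer partner that represses bile acid synthesis, was at 2.87, 3.71, 4.39 and 4.55 CPM against 8.14, 11.5, 6.73 and 8.72 CPM (log2 difference -1.18, SE 0.23, adjusted p = 0.0448). Of 22 tested genes of bile acid synthesis and transport it was the 1 that passed, and the list median was -0.11.

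Of 18 male-biased liver genes 1 was called lower, Bcl6, 15 had log2 differences below 0 (6254 of all 11905 genes did) and the median was -0.32. Bcl6 was also the only 1 whose groups did not overlap (5.56% of the list, against 9.12% of all genes). Selenbp2, a male-predominant selenium-binding protein, was at 44.9, 131, 25.3 and 32.9 CPM in RPN11 and at 622, 129, 56.6 and 512 CPM in METTL3 livers. Hsd3b5, a male-specific hydroxysteroid dehydrogenase, was at 29.9, 62.1, 4.71 and 15.5 CPM against 196, 103, 33.5 and 169.6 CPM. Both genes varied many-fold within each group, with METTL3 replicates 1 and 4 highest, and did not pass (adjusted p = 0.278 and 0.303). Of 11 tested female-biased genes none was called and 9 were above 0 (median 0.16). Igfals, a growth-hormone-dependent carrier of insulin-like growth factors, was at 41.7 to 63.5 against 61.3 to 87.9 CPM (adjusted p = 0.0784), and of 11 growth hormone signalling genes none was called. Serpina1c, one of the alpha-1-antitrypsin genes, was lower in RPN11 livers, at 2272, 2970.3, 2062 and 2607 CPM against 3716, 3836, 3624 and 3783 CPM (log2 difference -0.59, SE 0.11, adjusted p = 0.0389). Its family holds close copies among which counts may be split, and its copy Serpina1e was at 435 to 1748 against 1329.9 to 4718 CPM (adjusted p = 0.277).

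The other genes called higher are of mixed function. Dhrs9 (ENSMUSG00000027068, chr2:69380445-69404533), a retinol dehydrogenase, was at 3.62, 3.02, 2.27 and 1.49 CPM in RPN11 and at 0.531, 0.320, 0.558 and 0.445 CPM in METTL3 livers (log2 difference 2.48, SE 0.47, adjusted p = 0.0389). Lhx6, a LIM homeobox factor, was at 10.7, 10.6, 12.8 and 8.60 CPM against 4.32, 4.30, 4.42 and 5.12 CPM (log2 difference 1.23, SE 0.19, adjusted p = 0.0232). Tfcp2l1, a grainyhead-family transcription factor, was at 6.58 to 10.3 against 2.97 to 4.38 CPM, and Gatad2b, a subunit of the NuRD chromatin complex, at 7.44 to 10.8 against 2.27 to 4.74 CPM. Fzd4, a Frizzled receptor of Wnt and Norrin, was at 7.90 to 10.3 against 2.88 to 5.12 CPM. Ugt1a5, a glucuronosyltransferase, was at 22.0 to 35.5 against 8.46 to 18.3 CPM, and shares exons with the other Ugt1a genes, so its count is uncertain. Mme, the membrane peptidase neprilysin, was at 49.6 to 70.5 against 28.9 to 39.2 CPM (adjusted p = 0.0232), and Itih5, an inter-alpha-trypsin inhibitor heavy chain, at 17.2 to 27.0 against 10.4 to 13.4 CPM. The remaining genes called higher were Sntb1 (a syntrophin), Iqsec1 (an exchange factor for ARF GTPases), Sfxn2 (a mitochondrial sideroflexin), the ubiquitin ligases Rnf11 and Trim2, the zinc finger gene Zfp652 and Tgoln1 of the trans-Golgi network, with log2 differences of 0.82, 0.78, 0.73, 0.71, 0.66, 0.78 and 0.53 in that order.

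Among the genes called lower, Zkscan3, a zinc finger repressor of autophagy genes, was at 87.9, 103, 83.6 and 142 CPM in RPN11 and at 178, 193, 178 and 156 CPM in METTL3 livers (log2 difference -0.76, adjusted p = 0.0448). Nlrp6, a cytosolic innate sensor, was at 129 to 187 against 219.6 to 294 CPM (log2 difference -0.69, adjusted p = 0.0389). Actg1, cytoplasmic gamma actin, was at 38.5 to 48.8 against 51.8 to 80.7 CPM (log2 difference -0.75), and its count is uncertain because actin genes are near-identical. Recql5, a DNA helicase, was at 8.61 to 11.6 against 15.1 to 17.3 CPM. Tenc1, a tensin of focal adhesions, was at 46.6 to 61.6 against 68.6 to 85.0 CPM, and Eva1a, a regulator of autophagy, at 79.5 to 96.5 against 110.5 to 135 CPM. The groups of each of these 6 genes are separate.

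None of the clock genes passed, and several did not overlap between the groups. Of 5 activators 0 were called and 2 did not overlap, of 12 tested repressors 0 were called and 1 (8.33%) did not overlap, and of 16 output genes 0 were called and 3 did not overlap, against 9.12% of all tested genes. The repressors' share was thus near that of all genes. The median log2 differences were 0.17, -0.19 and -0.18. Arntl, the activator that pairs with CLOCK, was at 13.6, 12.5, 10.9 and 8.52 CPM in RPN11 and at 7.15, 3.70, 7.89 and 2.34 CPM in METTL3 flox/flox livers (log2 difference 1.12, SE 0.32, adjusted p = 0.123). Nr1d1, encoding REV-ERB alpha, was at 9.54, 9.01, 9.22 and 15.1 CPM against 14.5, 36.3, 32.3 and 53.7 CPM (log2 difference -1.68, SE 0.39, adjusted p = 0.106). METTL3 replicate 1 lay within the RPN11 range for Nr1d1, so the groups overlapped. Nr1d2, encoding REV-ERB beta, was at 119 to 134 against 141 to 179.7 CPM, without overlap (adjusted p = 0.0978).

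Of the 3 output genes that did not overlap, Dbp and Tef were lower in RPN11 livers and Lonrf3 was higher (log2 difference 0.84, adjusted p = 0.236). Of the 16 tested output genes, 7 had log2 differences above 0 and 9 below. Dbp, a PAR bZIP factor with a strong daily rhythm in liver, was at 6.22, 10.1, 14.5 and 23.9 CPM in RPN11 and at 25.6, 60.2, 47.2 and 72.1 CPM in METTL3 livers (log2 difference -1.91, SE 0.50, adjusted p = 0.145). Its relative Tef was at 126, 136, 141 and 152 CPM against 167, 191, 172 and 209 CPM (log2 difference -0.41, SE 0.10, adjusted p = 0.0762). For both genes every RPN11 liver lay below every METTL3 liver. Cry1, a repressor, was at 34.7 to 39.2 against 19.5 to 34.9 CPM (adjusted p = 0.125). Per1 and Per3, repressors of the loop, were at 19.3 to 44.5 against 24.8 to 56.8 CPM and 25.8 to 42.2 against 34.5 to 55.6 CPM, and overlapped. Clock was at 36.8 to 45.3 against 34.5 to 43.7 CPM, Cry2 at 12.0 to 15.2 against 7.32 to 18.7 CPM and Rora at 54.2 to 70.3 against 49.7 to 60.3 CPM, and none of them separated the groups. The hour of collection is not given for either line, so hour and line cannot be told apart.

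**Figure D3:**
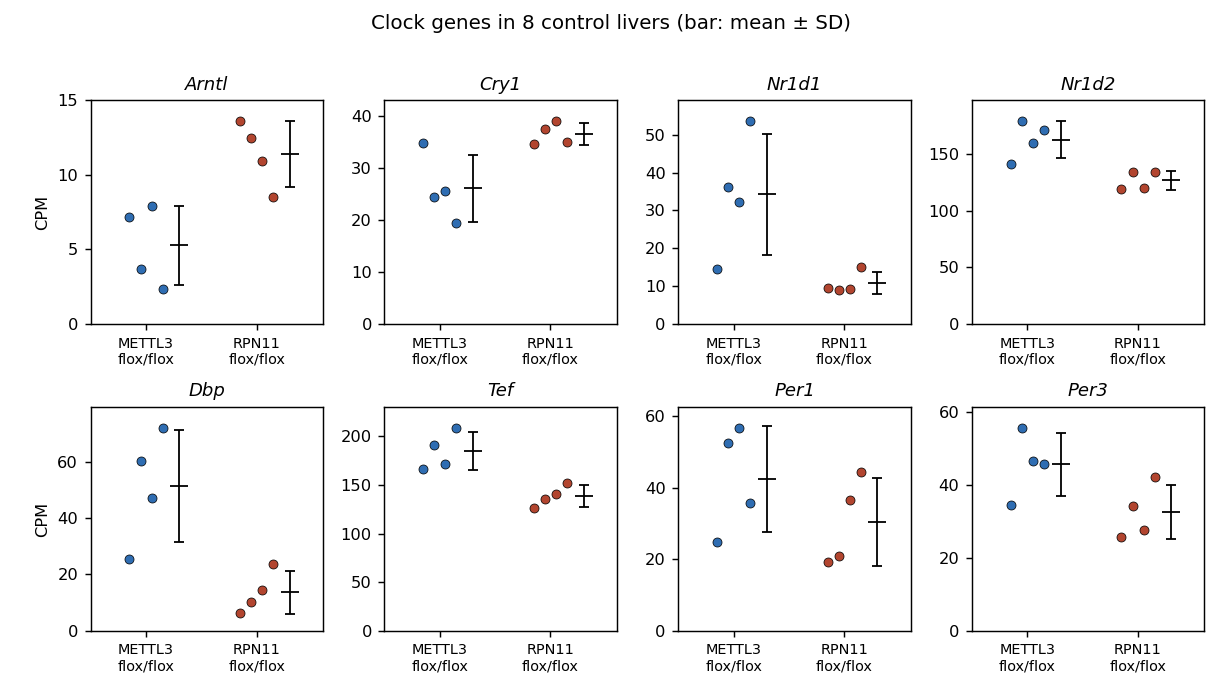
CPM (vertical axis, from 0) of 8 clock genes in each METTL3 (blue) and RPN11 (red) flox/flox liver, with mean ± SD (n = 4) beside the points. Arntl, Nr1d2, Dbp and Tef do not overlap between groups, Cry1, Nr1d1, Per1 and Per3 do, and none of the 8 passed the threshold.

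The promoters of Arntl and Tef are shown because these genes lay apart in opposite directions and carry different clock elements. Of 34 clock genes, 24 matched a promoter entry. The ROR and REV-ERB element core TAGGTCA was in 2 of them, Arntl and Nfil3, and in 2.61% of all promoters. The E-box CACGTG was in 5, Tef among them, against 7.15% of all, and the D-box TTATGTAA was in 1, Per3, against 0.938%. Both strands were read, and the matched letters are in capitals. The Arntl window is chr7:113207261-113207560 and the Tef window chr15:81802423-81802722, both on the plus strand, with matches that start at bases 281 and 124.
Arntl: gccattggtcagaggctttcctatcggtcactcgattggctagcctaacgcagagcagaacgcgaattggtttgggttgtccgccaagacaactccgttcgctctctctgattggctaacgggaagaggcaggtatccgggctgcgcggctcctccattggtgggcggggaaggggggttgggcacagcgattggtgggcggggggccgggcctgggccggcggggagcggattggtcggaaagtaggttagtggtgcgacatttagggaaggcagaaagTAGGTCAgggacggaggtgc
Tef: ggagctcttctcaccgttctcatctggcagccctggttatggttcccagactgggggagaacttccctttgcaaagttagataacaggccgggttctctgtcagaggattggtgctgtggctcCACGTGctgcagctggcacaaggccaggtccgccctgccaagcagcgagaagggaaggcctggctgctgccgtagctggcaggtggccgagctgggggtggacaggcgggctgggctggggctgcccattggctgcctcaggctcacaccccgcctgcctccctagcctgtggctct
No factor was measured at these letters.

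Pericentral genes, expressed around the central vein under Wnt signals, were on 1 side of 0. Of 19 tested members 0 were called, all 19 had log2 differences below 0 and the median was -0.21. In 4 of them (21.1%) all RPN11 livers lay below all METTL3 livers, against 4.36% of all genes. Notum, a secreted Wnt inhibitor, was at 17.1, 16.3, 19.3 and 18.9 CPM in RPN11 and at 22.4, 28.5, 28.0 and 27.7 CPM in METTL3 livers (adjusted p = 0.0528). Tbx3, a transcription factor of this zone, was at 32.4 to 49.5 against 52.0 to 91.5 CPM (adjusted p = 0.0793). Rnf43, a ubiquitin ligase that removes Frizzled receptors, was at 14.2 ± 3.26 against 26.0 ± 6.92 CPM (SD, n = 4, adjusted p = 0.0798), with overlap. Glul, glutamine synthetase, and the Wnt targets Axin2 and Lgr5 had log2 differences of -0.03, -0.07 and -0.21, within the spread of the livers. Of 16 periportal genes 0 were called and the median was 0.08.

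Ribosomal protein genes were also on 1 side of 0. Of 69 tested genes 0 were called, all 69 had log2 differences below 0 under both scalings tried, and the median was -0.29. The groups did not overlap in 5 (7.25%), all on the lower side, against 4.36% of all genes. The ribosomal protein sums overlapped, at 5938 to 7258 CPM in RPN11 and 6696 to 8703 CPM in METTL3 livers, with METTL3 replicate 4 inside the RPN11 range. Rplp1, an acidic stalk protein, was at 38.9 to 55.5 CPM in RPN11 and 54.1 to 74.1 CPM in METTL3 livers (adjusted p = 0.0847), and Rpl10 at 183 to 234 against 251 to 325 CPM (adjusted p = 0.0881). Nuclear genes of the respiratory chain had 53 of 58 members below 0 (median -0.18). Proteasome genes had 29 of 38 below 0 (median -0.12), against 6254 of all 11905 tested genes. None of either list was called. In 7 proteasome genes all RPN11 livers lay below all METTL3 livers and in 1 above, 21.1% of that list in all. Of the respiratory list 8.62% did not overlap, and of all tested genes 9.12%. Transcript length and GC content moved with the differences over all genes. With genes ranked by transcript length in 5 equal bins, the median log2 difference from the shortest to the longest bin was -0.10, -0.06, -0.03, 0.02 and 0.08, and from the lowest to the highest of 5 GC bins it was 0.02, 0.05, 0.01, -0.06 and -0.12. The median ribosomal protein transcript is 711.5 bases long, within the shortest bin. The part of length and GC content in the ribosomal and respiratory differences was not tested.

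**Figure D4:**
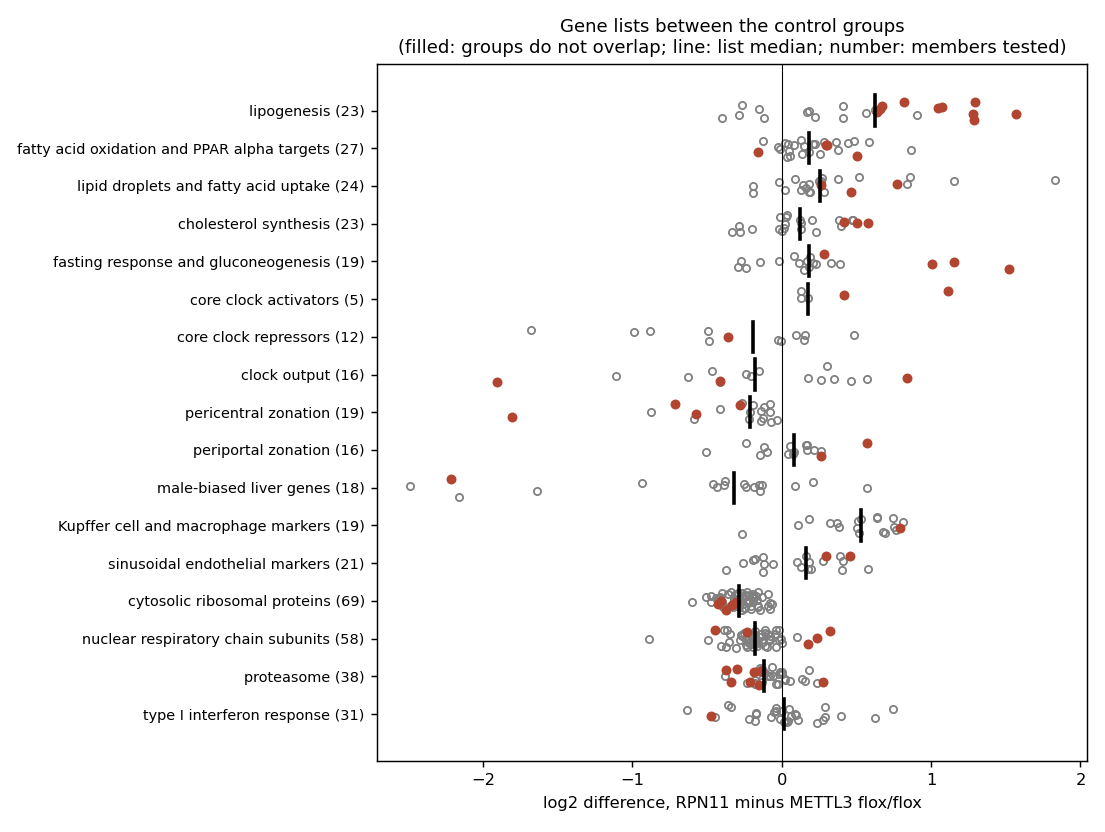
Each point is the log2 difference (horizontal axis, RPN11 minus METTL3 flox/flox) of 1 tested gene in the list named at the left, filled where the 2 groups do not overlap, with a line at the list median. Lipogenesis has a median of 0.63, and pericentral and ribosomal protein genes have no member above 0.

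Kupffer cells are the resident macrophages of the liver. Of 19 tested macrophage markers 0 were called, 18 had log2 differences above 0 (47.5% of all genes did) and the median was 0.53. In 1 of them (5.26%) the groups did not overlap, near the 4.76% of all genes in that direction. Clec4f, a Kupffer cell lectin, was at 80.7, 69.9, 81.6 and 55.6 CPM in RPN11 and at 37.2, 55.8, 39.2 and 45.7 CPM in METTL3 livers (log2 difference 0.69, SE 0.15, adjusted p = 0.0507). Vsig4, a complement receptor, was at 26.5 to 54.6 against 17.3 to 26.2 CPM (adjusted p = 0.0856), and Cd5l, a secreted macrophage protein, at 39.7 to 78.4 against 33.3 to 48.0 CPM (adjusted p = 0.0978). Summed over 21 markers the level was 495, 465, 475 and 292 CPM in RPN11 and 241, 317, 257 and 326 CPM in METTL3 livers, so RPN11 replicate 4 lay inside the METTL3 range. None of the 21 was at 0 in all livers. The part of macrophage RNA in the lipid gene differences, which point the same way, was not tested. Of 16 hepatocyte markers 1 was called lower, Serpina1c, 10 had log2 differences below 0 and the median was -0.27. The groups did not overlap in 4 (25%), against 9.12% of all genes. Of these, 3 were on the lower side, where 4.36% of all genes lay. The hepatocyte marker sums overlapped, at 138853 to 158914 CPM in RPN11 and 131560 to 157057 CPM in METTL3 livers. Alb alone held a mean of 107507 of 146467 CPM in RPN11 and 102323 of 145060 CPM in METTL3 livers. The sums thus say little about the other markers. Endothelial markers (21 tested, median 0.16), stellate and matrix markers (22 tested, median 0.02) and cholangiocyte markers (6 tested, median -0.14) had 0 calls each. Lists of the type I interferon response (31 tested, median 0.02), the acute phase (26 tested, median 0.27), immediate early genes (28 tested, median -0.34) and chaperones of the endoplasmic reticulum (21 tested, median -0.29) also had 0 calls.

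The called genes were placed on the genome because the lines carry engineered alleles on different chromosomes. Within 10 Mb of Psmd14 (chr2:61711694-61800376) 60 genes were tested and 1 was called, Dhrs9 (1.67%), and within 10 Mb of Mettl3 (chr14:52294841-52305128) 137 were tested and 0 were called. Within 5 Mb of Psmd14, 25 were tested and 0 called. Chromosome 19 held 6 of the 38 called genes among 434 tested (1.38%, against 0.319% over all), and all 6 were higher in RPN11 livers: Fads2, Papss2, Lipa, Scd3, Sfxn2 and Acsl5. They lie between 10062765 and 55297720 and are not a single cluster. Of 5 tested genes known to differ between mouse strains or C57BL/6 substrains 0 were called. Nnt, which carries a deletion in C57BL/6J mice, was at 0.894, 1.05, 0.902 and 1.24 CPM in RPN11 and at 1.34, 2.17, 2.39 and 1.63 CPM in METTL3 livers, low in both and without overlap (adjusted p = 0.313). Wdfy1, Cyfip2, Casp4 and Nlrp12 overlapped between groups.

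The difference between the lines was looked up in the knockout livers, which share no sample with the control livers. The knockout groups also differ in the deletion their labels give, so line and deletion cannot be told apart. There 1500 of 12683 genes (11.8%) passed, 619 (4.88%) higher and 881 (6.95%) lower in livers labelled RPN11 knockout than in METTL3 knockout livers. With the replicate number as a block, 1186 were higher and 1465 lower. The livers numbered 4 in both knockout groups stood apart, with 708 and 485 CPM summed over 19 brain markers against 43.6 to 66.3 CPM in the other 6, and without them 699 were higher and 740 lower. Leaving out 1 knockout liver at a time gave 154 higher and 223 lower without METTL3 replicate 2, and 1253 higher and 1406 lower without METTL3 replicate 1. Mettl3 was at 13.5, 14.3, 9.51 and 14.8 CPM in livers labelled RPN11 knockout and at 7.27, 6.998, 7.28 and 7.53 CPM in METTL3 knockout livers. Psmd14 was at 99.7, 76.0, 90.7 and 69.6 CPM in livers labelled RPN11 knockout and at 77.4, 66.5, 78.8 and 67.2 CPM in METTL3 knockout livers, so its counts were not low where the label gives its deletion.

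Of the 38 genes called between control groups, 2 (5.26%) were called the same way between knockout groups, which is 0.133% of the calls there. Another 7 (18.4%) were called the opposite way and 29 were not called. Over all genes tested in knockout livers, 4.88% were called higher and 6.95% lower. The share called the same way was thus near that of all genes. The sign agreed in 14 of 38 (36.8%), against 42.8% of all genes tested in both. Fads2 was 1 of the 2, at 403, 291, 425 and 197 CPM in livers labelled RPN11 knockout and 183, 121, 127 and 101 CPM in METTL3 knockout livers (log2 difference 1.31, adjusted p = 0.0177). Mgll was the other, at 184 to 227 against 68.7 to 96.1 CPM (log2 difference 1.39, adjusted p = 0.00133). Without both livers numbered 4 there were 4 such higher genes and 1 lower. The 7 opposite genes were Rnf11, Tfcp2l1, Serpina1c, Itih5, Dhrs9, Acaca and Zfp652. The carboxylase gene Acaca was at 82.5, 59.0, 109 and 60.5 CPM in livers labelled RPN11 knockout and 99.2, 199, 319 and 224 CPM in METTL3 knockout livers (log2 difference -1.43, adjusted p = 0.0309). Itih5 was at 31.6 to 50.6 against 96.3 to 402 CPM (log2 difference -2.83, adjusted p = 0.00648). Scd1, apart in control livers, was at 8888 to 14782 against 6106 to 16574 CPM and overlapped. Of the 23 lipogenesis genes 3 were called higher and 3 lower in livers labelled RPN11 knockout, against 4.88% and 6.95% of all genes tested there.

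**Figure D5:**
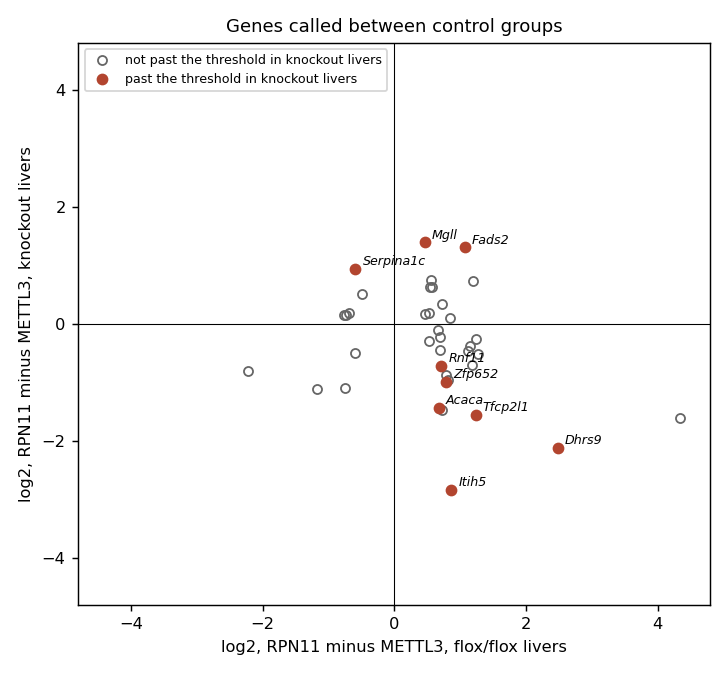
Log2 differences, RPN11 minus METTL3, of the 38 genes called between flox/flox livers (horizontal axis) and of the same genes between knockout livers (vertical axis). Filled points passed the threshold in knockout livers: Fads2 and Mgll lie in the upper right, and the other 7 lie on the opposite side of 0.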

How the data were processed

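Raw counts per gene were used as the authors deposited them, for 16973 genes, all protein-coding in the table. Per the submitters' processing notes, the tools named are cutadapt 1.9.3, HISAT2 2.0.4, HTSeq 0.9.1 and edgeR, with the build mm10. The strand setting and the gene annotation behind the counts were not stated. Ribosomal RNA was removed, per the labels' protocols, and a low-input kit was used. The authors' edgeR-normalized columns were not used. Of the identifiers, 16804 matched GENCODE M21 (GRCm38), and 849 had another symbol there. Symbols are those of the table, and coordinates are those of GENCODE M21.

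Genes were tested with edgeR 4.0.16 in R 4.3.3 (filterByExpr, TMM, robust quasi-likelihood test), RPN11 minus METTL3 over 8 control livers, with Benjamini-Hochberg adjustment over all tested genes and a threshold of 0.05. The same was done for the 8 knockout livers. Psmd14 and Mettl3 also had an exact permutation test on log2(CPM + 0.5). The procedure was tested on simulated data. Alternatives were RLE size factors, DESeq2 1.42.0, limma 3.58.1 (voom and quality weights), no filter, a filter at 5 CPM on average, 1 fit over the 16 livers, a block for replicate number, and each liver left out. Gene lists are described by counts and medians, with no list test.

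Replicate numbers did not pair the control livers, with correlations of the deviations of same-numbered livers of -0.02, -0.13, 0.08 and -0.10. In the knockout livers they were 0.21, 0.17, 0.19 and 0.70, each over the 0.1 that the rule used asks for, so the blocked count is given there. Differently numbered knockout livers among replicates 1 to 3 correlated as much (0.12 to 0.20), and only the livers numbered 4 stood out as a pair.

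The genes and lists were chosen with earlier results of these data known. Genes named by rule are the targeted genes, clock and strain lists, the 10 largest called rises and falls with separated groups and a mean of at least 1 CPM, at most 4 genes per list, taken by lowest p, up to 5 called genes near each floxed locus and up to 8 called in both comparisons. Other genes were picked with their values in view, which includes the other called genes. Some members of the lists are counted but not reported by name here.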

Additional observations from a re-analysis of the deposited data

Results flagged for a closer look

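Within 206 groups of 4 livers, 12 held a liver that stood apart from the other 3 by Dixon's 95% limit, and chance alone gives about 1 in 20 groups. In METTL3 flox/flox livers, Fads2 was at 397 CPM in replicate 3 against 279 to 294 in the others, Lhx6 at 5.12 in replicate 4 against 4.30 to 4.42, and Acly at 267 in replicate 1 against 163 to 178. Glul was at 1787 CPM in METTL3 replicate 4 against 1278 to 1359, and Notum at 22.4 in METTL3 replicate 1 against 27.7 to 28.5. RPN11 flox/flox replicate 4 stood apart in 5 genes. There Mlxipl was at 509 CPM against 352 to 361, Nr1d1 at 15.1 against 9.01 to 9.54, and Igfals at 63.5 against 41.7 to 45.3. Scd2 was at 10.1 CPM in it against 13.6 to 14.2, and Sc5d at 576 against 528 to 529.8. Pgd was at 44.0 CPM in RPN11 replicate 3 against 30.7 to 32.7, and Acacb at 134 in RPN11 replicate 1 against 152 to 154.

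In 24 of the 38 genes called between the control groups, the line difference in flox/flox livers differed from that in knockout livers, by the interaction term of an edgeR fit of all 16 livers. The genes were chosen on the flox/flox difference, and the interaction uses the same livers. In knockout livers the line difference cannot be told apart from that of the labelled deletions. Values are the flox/flox minus the knockout log2 difference. Those above 0 were Scd3 5.90, Lipa 1.07, Lhx6 1.44, Pdpr 1.47, Etnk1 0.86, Sntb1 1.73, Rnf11 1.37, Trim2 0.72, Tfcp2l1 2.73, Fzd4 1.82, Itih5 3.62, Dhrs9 4.53, Gatad2b 1.73, Iqsec1 1.604, Zfp652 1.72, Acsl5 0.76, Acaca 2.04, Pgd 2.14 and Abhd2 1.51. Those below 0 were Serpina1c -1.59, Zkscan3 -0.97, Eva1a -1.06, Mgll -0.99 and Recql5 -0.94. The adjusted p ran from 6.09e-05 (Dhrs9) to 0.0262 (Acsl5). The largest was in Scd3, the stearoyl-CoA desaturase, and the next in Dhrs9, the retinol dehydrogenase.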

How the results depend on the processing

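The number of calls was sensitive to the method. All 38 kept their sign wherever they were tested, which their non-overlapping groups made nearly certain beforehand. Genes higher and lower in RPN11 flox/flox livers numbered 29 and 9. They were 56 and 10 with RLE size factors, 62 and 21 at a mean of at least 5 CPM, 104 and 40 with no filter, 267 and 156 with DESeq2, 114 and 60 with voom, and 1 and 0 in the fit of all 16 livers. Leaving out 1 liver gave 1 to 194 higher and 0 to 88 lower. Of the 38 calls 36 were kept by DESeq2, 35 by voom and 38 with RLE. The cause was not tested.

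Replicate numbers did not pair the control livers, and the fit with the replicate block gave 4 higher and 3 lower, with 3 of the 38 kept. For Mettl3 the replicate block left the log2 difference at -0.68 (exact p = 0.125, the smallest that 4 pairs can give). With 1 liver left out it ran from -0.77 to -0.59 (exact permutation p = 0.0571, the smallest possible). Psmd14 changed sign, to 0.01 without RPN11 replicate 1, 0.044 without METTL3 replicate 1 and 0.01 without METTL3 replicate 4, over a range of -0.11 to 0.04.

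Between knockout livers, the 619 higher genes became 1446 in the fit of all 16 livers, 1152 with DESeq2, 1186 with the replicate block and 1845 with voom, and 154 to 1253 with 1 liver left out. The 881 lower genes became 1465 with the block and 2351 with voom, and 223 to 1406 with 1 liver left out. The 2 genes higher in both comparisons became 0 in the fit of all 16 livers, 29 with DESeq2, 5 with RLE, 7 at a mean of 5 CPM, 6 with no filter, 1 with the block, 19 with voom, 4 without both livers numbered 4, and 1 to 8 with 1 liver left out. The 0 lower in both became 12, 2 at a mean of 5 CPM, 2 with no filter, 1 with the block, 15 with voom, 1 without both livers numbered 4, and 0 to 5 with 1 liver left out, where 12 is DESeq2. Within 5 Mb of Psmd14 0 genes were called. Among values of single genes, 1136 kept their side of the threshold, 273 lost it and 112 gained it. Counts of called list members stayed within 1.5 times in 211 cases and moved further in 59. Counts limit precision at low levels, as for Scd3 with 15 counts in METTL3 livers.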
